A study of Mus musculus with 4 samples.

Results

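The 2'-5' oligoadenylate synthetase (Oas) family was followed in ErbB2-driven mammary tumour cells of the mouse after exposure to GSK-126. This drug inhibits EZH2, the enzyme that trimethylates histone H3 at lysine 27 (H3K27me3), a mark of silent chromatin. The 7 genes Oas1a, Oas1b, Oas1g, Oas2, Oas3, Oasl1 and Oasl2 were taken by name. Of these, 6 were among the 22180 genes measured by a probe set with 1 gene symbol, and Oas1a was represented only by a probe set that the platform annotation also gives to Oas1g. Each of the 6 had a single such probe set. The cells were lines grown from MMTV-NIC tumours, which arise in female mice of the FVB strain where the mouse mammary tumour virus promoter drives an activated ErbB2 receptor and Cre recombinase from 1 transcript in mammary epithelium. All arrays therefore carry that transgene, and no cells without it were part of the comparison. The control group received the vehicle DMSO (n = 2 arrays) and the treated group 2 µM GSK-126 (n = 2 arrays, called GSK126 here), both for 96 h. Whether the replicates of a group were separate lines or cultures of 1 line is not settled by the labels, so the p-values speak only for the scatter among these 4 arrays, and that scatter may be technical.

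Oas genes are induced by interferons, which act through receptors, JAK kinases and transcription factors, Stat2 and Irf9 among them, that bind interferon-stimulated response elements. The synthetases bind double-stranded RNA and then join ATP into 2'-5' linked oligoadenylates (2-5A), a second messenger that leads to the cleavage of viral and cellular RNA. The Oas-like proteins carry ubiquitin-like domains after the synthetase domain, and not all family members have kept enzyme activity.

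All levels below are on the log2 scale, as the authors' RMA summary of core exons gives them. Array medians over all probe sets were 4.73 to 4.74 in DMSO and 4.78 to 4.79 in GSK126. Array pairs correlated between 0.981 and 0.988, and the treated arrays did not group together. GSK126 replicate 2 correlated at 0.981 with GSK126 replicate 1, and GSK126 replicate 1 at 0.987 and 0.986 with the DMSO arrays. Changes are GSK126 minus DMSO, fitted in limma with Benjamini-Hochberg adjustment over all genes and a threshold of 0.05. Over all genes the median change was -0.0077, with 58 genes higher and 38 lower past the threshold. When each array was centred on its median, 55 were higher and 62 lower. That centring lowered the changes of all genes alike and moved their median to -0.062. Leaving out DMSO replicate 1 left 4 calls in all, DMSO replicate 2 left 2, and either GSK126 array left 0 in limma, with 2100 genes at an unadjusted p under 0.05 without GSK126 replicate 1 and 1771 without GSK126 replicate 2. Levels of the 9 measured epithelial markers differed widely. Krt18 was at 11.6 to 11.7 and Epcam at 10.4 to 10.6 on the 4 arrays, and Krt8, Cdh1, Elf5 and Erbb2 lay between 8.85 and 10.9. Lower were Krt14 at 5.30 to 6.16, Krt19 at 4.62 to 4.89 and Trp63 at 4.25 to 4.60. The pan-leukocyte gene Ptprc was at 3.37 to 3.67. A level below 4.77, the 40th percentile of gene means, is called dim.

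Transcripts of 2 family members rose with GSK126, Oas2 by 1.92-fold and Oasl2 by 1.55-fold. Another 3 members, Oasl1, Oas3 and Oas1b, had both treated arrays above both control arrays at 1.26-fold to 1.38-fold but did not pass the threshold. Oas1g, at 1.02-fold, differed between the groups by less than its replicates did. Among all genes, 0.261% passed as higher, an unadjusted p under 0.05 was found for 4.64% as higher and for 5.93% as lower, and 18.2% had both GSK126 arrays above both DMSO arrays. For the 6 measured members these counts were 2, 5, 0 and 5. In bulk samples, more cells with a transcript and more of it per cell cannot be told apart.

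**Figure D1:**
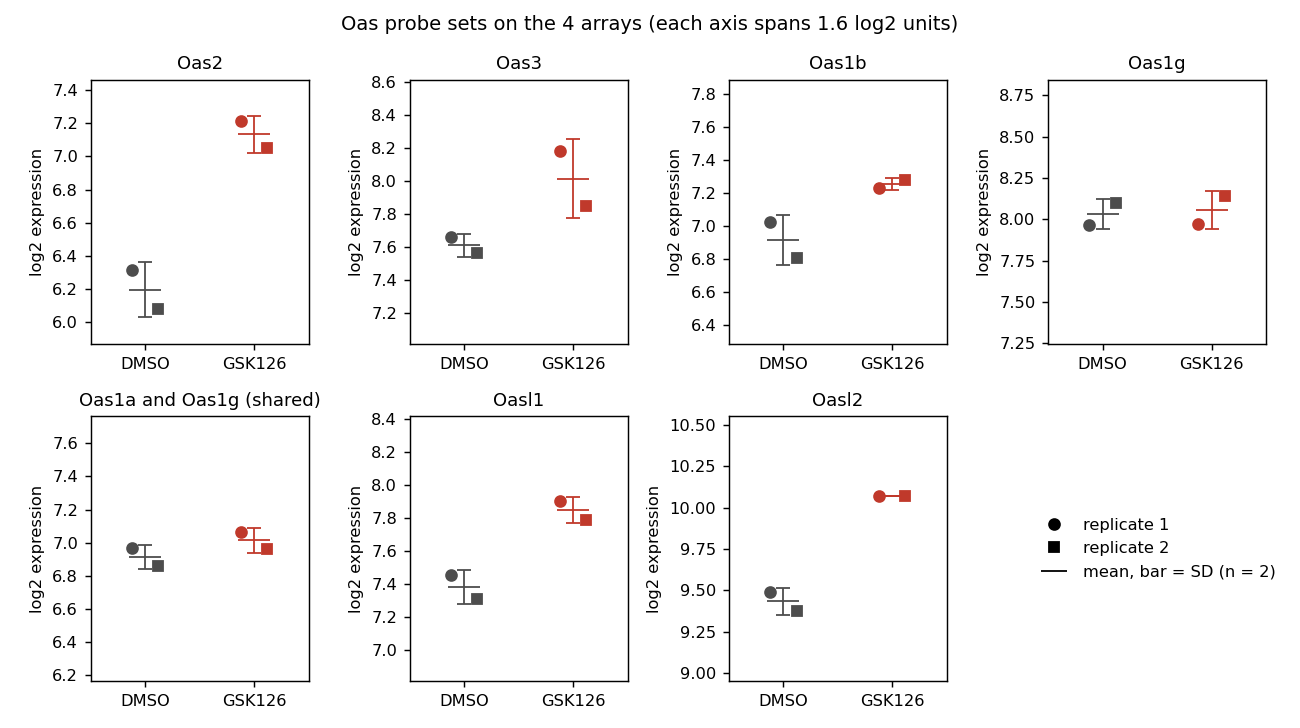
Log2 expression of each Oas probe set (vertical axes, each spanning 1.6 log2 units) in DMSO and GSK126, with replicate 1 as circles, replicate 2 as squares, the mean as a line and the SD as a bar (n = 2). The treated arrays lie above the control arrays for Oas2, Oas3, Oas1b, Oasl1 and Oasl2, while the groups overlap for Oas1g and for the probe set shared by Oas1a and Oas1g.

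Oas2 makes 2-5A and carries a duplicated synthetase domain. It was at 6.31 and 6.08 on DMSO replicates 1 and 2, and at 7.21 and 7.05 on GSK126 replicates 1 and 2. The lowest treated array lay 0.74 above the highest control array, and replicates lay 0.23 apart in DMSO and 0.16 apart in GSK126. The mean went from 6.20 ± 0.17 (SD, n = 2) to 7.13 ± 0.11 (SD, n = 2), a log2 change of 0.94 (SE 0.13, adjusted p = 0.0343 in limma). The 95% interval of the fold was 1.56 to 2.35. In the order of all 22180 genes by signed change, Oas2 stood in place 67.

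Oas3, the longest synthetase of the family, was at 7.66 and 7.56 in DMSO and at 8.18 and 7.85 in GSK126. Both treated arrays were above both controls, but the treated arrays lay 0.34 apart, the widest such distance among the 6 members, with GSK126 replicate 1 the higher. The log2 change was 0.40 (SE 0.13, unadjusted p = 0.0135, adjusted p = 0.329 in limma), with a 95% interval of the fold from 1.08 to 1.62. It was 0.23 without GSK126 replicate 1 and 0.57 without GSK126 replicate 2.

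Oas1g and Oas1a are neighbouring, closely related genes for the small synthetase that makes short 2-5A. Oas1g was at 7.97 and 8.10 in DMSO and at 7.97 and 8.14 in GSK126. The groups overlapped, and replicates lay 0.13 and 0.16 apart, both more than the log2 change of 0.025 (SE 0.10, adjusted p = 0.969 in limma). The 95% interval of the fold ran from 0.864 to 1.20, so a rise of the size of that of Oas2 lay outside it. The direction of this small value was not settled. It became -0.029 with each array centred on its median, where the median change over all genes was -0.062. Leaving out DMSO replicate 1 or GSK126 replicate 2 gave -0.040 and -0.058. The probe set annotated to Oas1a and Oas1g together was at 6.96 and 6.86 in DMSO and at 7.07 and 6.96 in GSK126. Its groups overlapped as well, and its change was 0.10 (SE 0.11, adjusted p = 0.873 in limma over all probe sets). How much of that signal comes from each of these genes cannot be told apart on this array, so Oas1a has no value of its own here.

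The promoter windows of this pair are shown because they hold letters that match the element named above and because they show how alike these genes are. They are RefSeq sequences of the reference strain on GRCm38.p6, from 250 bases before to 50 after the transcription start, and those of Oas1a (chr5:120907476-120907775, minus strand) and Oas1g (chr5:120887564-120887863, minus strand) were identical at 85.3% of the columns of a global alignment. Capitals mark matches to the core of the interferon-stimulated response element, searched as GAAA, any 2 bases and GAAA, or on the other strand as TTTC, any 2 bases and TTTC. In both windows 2 matches overlap.
Oas1a: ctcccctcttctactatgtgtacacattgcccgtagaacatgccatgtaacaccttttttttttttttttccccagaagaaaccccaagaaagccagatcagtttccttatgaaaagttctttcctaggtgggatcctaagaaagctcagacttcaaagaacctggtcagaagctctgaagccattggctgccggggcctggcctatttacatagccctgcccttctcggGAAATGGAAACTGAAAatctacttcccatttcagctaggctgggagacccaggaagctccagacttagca
Oas1g: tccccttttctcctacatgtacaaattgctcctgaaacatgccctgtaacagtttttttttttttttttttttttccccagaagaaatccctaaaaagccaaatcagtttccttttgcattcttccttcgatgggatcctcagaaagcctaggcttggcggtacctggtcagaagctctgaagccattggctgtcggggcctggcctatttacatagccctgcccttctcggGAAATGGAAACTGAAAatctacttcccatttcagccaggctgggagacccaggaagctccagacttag

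RefSeq windows were found for 5 of the 7 members, Oas1a, Oas1g, Oas3, Oasl1 and Oasl2. Matches to this core were present in 3 of these windows, those of Oas1a, Oas1g and Oas3, and in 3.44% of all 32851 promoter windows of the same length. The gamma-activated site, searched as TTC, any 3 bases and GAA, which reads the same on both strands, was present in the window of Oas1a among these members and in 8.3% of all windows. The windows of Oas3 (chr5:120777610-120777909, minus strand), which holds 1 match, and of Oasl2 (chr5:114896684-114896983, plus strand), which holds 0, are shown as examples. Oasl2 passed the threshold and Oas1g, with 2 matches, did not. No window was found for Oas2, the other member that passed, and a link between matches and calls was not tested. A match here is a description of letters in a 300-base window and not a measured binding site.
Oas3: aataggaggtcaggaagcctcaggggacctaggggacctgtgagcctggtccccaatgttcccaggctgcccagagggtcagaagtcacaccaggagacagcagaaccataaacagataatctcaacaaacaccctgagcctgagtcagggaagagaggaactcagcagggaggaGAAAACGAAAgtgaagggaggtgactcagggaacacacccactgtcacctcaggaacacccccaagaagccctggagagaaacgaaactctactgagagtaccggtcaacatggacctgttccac
Oasl2: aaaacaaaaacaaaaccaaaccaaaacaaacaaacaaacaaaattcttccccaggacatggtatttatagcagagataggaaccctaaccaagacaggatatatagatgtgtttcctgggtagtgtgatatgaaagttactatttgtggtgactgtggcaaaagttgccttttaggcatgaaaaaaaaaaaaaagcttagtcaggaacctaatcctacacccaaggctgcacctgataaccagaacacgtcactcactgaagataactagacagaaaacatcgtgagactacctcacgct

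Oas1b is known for its role in resistance of mice to flaviviruses and is annotated by RefSeq as a transcribed pseudogene in the reference strain. Its sequence in the FVB cells was not examined. It was at 7.02 and 6.81 in DMSO and at 7.23 and 7.28 in GSK126. The treated arrays lay above the controls by at least 0.20, close to the distance of 0.21 between the 2 DMSO arrays. The log2 change was 0.34 (SE 0.11, unadjusted p = 0.0173, adjusted p = 0.360 in limma), with a 95% interval of the fold from 1.06 to 1.51.

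Oasl2, an Oas-like protein that has kept synthetase activity in mice, was at 9.49 and 9.38 in DMSO and at 10.07 on both GSK126 arrays. The treated arrays lay 0.0016 apart, and the lowest lay 0.58 above the highest control. The log2 change was 0.63 (SE 0.083, adjusted p = 0.0340 in limma), with a 95% interval of the fold from 1.36 to 1.78. Its change was 0.58 to 0.69 over the fits that left out 1 array each.

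Oasl1, the neighbour of Oasl2, lacks synthetase activity and is known to hold back translation of Irf7 mRNA. It was at 7.45 and 7.31 in DMSO and at 7.90 and 7.79 in GSK126. The smallest distance between a treated and a control array was 0.34, and replicates lay 0.14 and 0.11 apart. The log2 change was 0.46 (SE 0.10, unadjusted p = 0.00206, adjusted p = 0.169 in limma), with a 95% interval of the fold from 1.17 to 1.62. Irf7 itself had means of 9.83 in DMSO and 10.06 in GSK126, a change of 0.23 that did not pass (unadjusted p = 0.0367, adjusted p = 0.436 in limma).

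**Figure D2:**
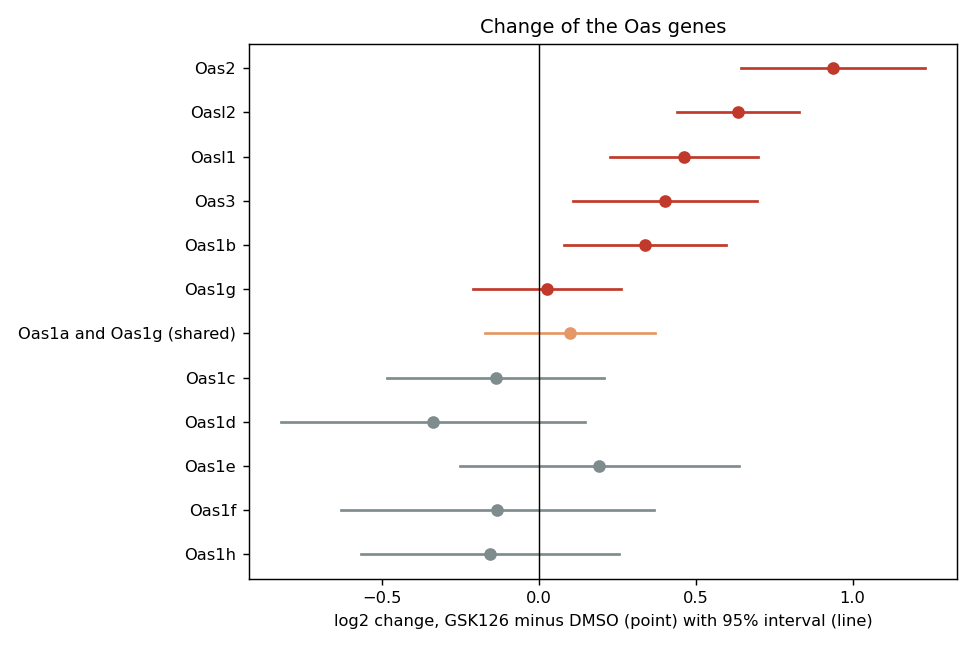
Log2 change (GSK126 minus DMSO, points) with 95% interval (lines) for the 6 measured members in red, the probe set shared by Oas1a and Oas1g in orange and the other 5 Oas1 genes in grey. The interval lies above 0 for 5 members and spans 0 for Oas1g, the shared probe set and the 5 other genes; that of the shared probe set comes from the fit over all probe sets.

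The order of the changes was Oas2, Oasl2, Oasl1, Oas3, Oas1b and Oas1g. The intervals of neighbours in that order overlapped, and differences between members were not tested. That of Oas1g ended at 0.26, below the lower ends of Oas2 (0.65) and Oasl2 (0.44). The median change of the 6 members was 0.43, and it ran from 0.37 without DMSO replicate 2 to 0.54 without GSK126 replicate 2. The calls of Oas2 and Oasl2 needed all 4 arrays, since 0 members passed in limma without any 1 of them, with 5 at an unadjusted p under 0.05 without DMSO replicate 1, 3 without DMSO replicate 2, 3 without GSK126 replicate 1 and 4 without GSK126 replicate 2. Both calls also ended in limma without the intensity trend in the variance (adjusted p = 0.217 for Oas2 and 0.264 for Oasl2) and over all probe sets (0.440 and 0.413), each with 5 members at an unadjusted p under 0.05.

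**Figure D3:**
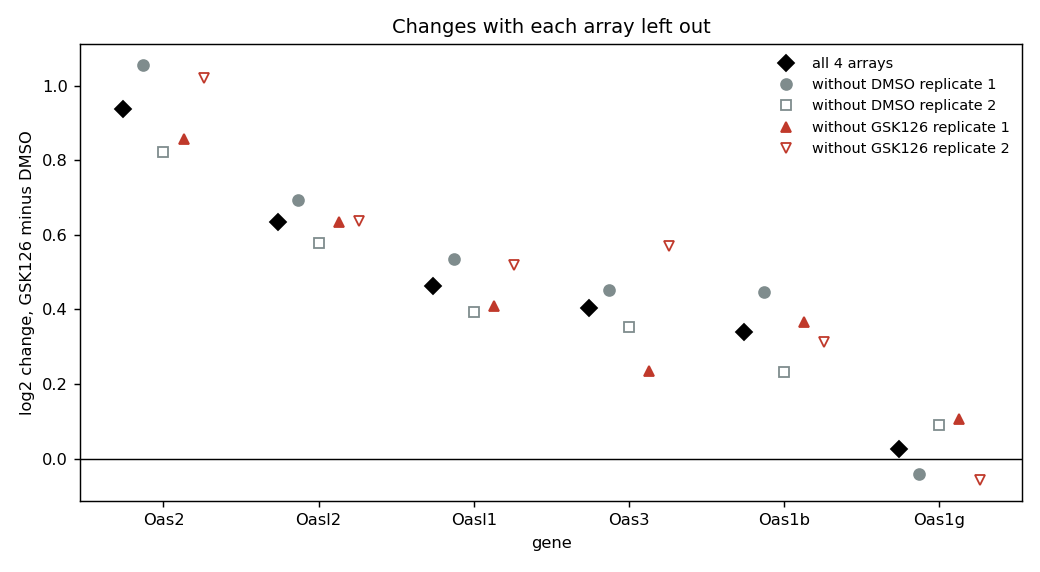
Log2 change (GSK126 minus DMSO, vertical axis) of each measured member with all 4 arrays (black diamonds) and with each array left out in turn (grey for a DMSO array, red for a GSK126 array). Oas2 stays between 0.82 and 1.06, Oas3 moves between 0.23 and 0.57 with the GSK126 array that is left out, and Oas1g lies on both sides of 0.

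**Figure D4:**
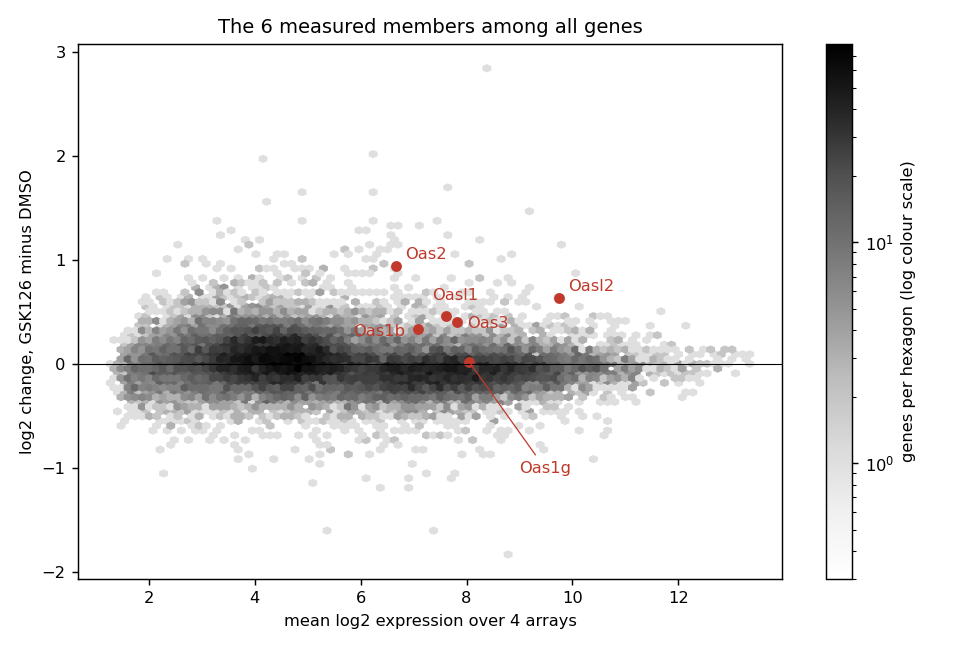
Log2 change (vertical axis) against mean log2 expression over the 4 arrays (horizontal axis) for all 22180 genes as grey hexagons, shaded by the number of genes on a log scale, with the 6 members as red points. Oas2 at 0.94 and Oasl2 at 0.63 lie above most genes of their level, and Oas1g at 0.025 lies near the line at 0.

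The members lie at 2 places on chromosome 5. In the RefSeq gene order, Oas2 and Oas3 are followed by Oas1e, Oas1c, Oas1b, Oas1f, Oas1h, Oas1g, Oas1a and Oas1d, and Oasl2 and Oasl1 form a separate pair. Of the 5 other Oas1 genes in the cluster, 0 passed in limma and 0 had an unadjusted p under 0.05, with a median change of -0.14 (range -0.34 to 0.19). That median was -0.078 without DMSO replicate 1, -0.089 without GSK126 replicate 2 and -0.20 without GSK126 replicate 1. Of them, Oas1d (2.07 to 2.75 over the 4 arrays), Oas1e (3.13 to 3.58), Oas1f (3.81 to 4.38) and Oas1h (2.02 to 2.34) were dim in both groups. Oas1c, next to Oas1b, had group means just above the dim level, with arrays at 4.99 and 4.87 in DMSO and 4.86 and 4.73 in GSK126, and its change of -0.14 did not pass. Its RefSeq window held 2 matches to the response element core. The 3 nearest measured genes on each side of both places were 12 genes with changes from -0.51 to 0.27, of which 0 passed in limma and 2 had an unadjusted p under 0.05. Both of these were lower, Rasal1 near Oas2 (-0.51) and 2610524H06Rik near Oasl2 (-0.46).

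The list of 2-5A pathway partners, with Cgas counted in it, showed 0 of 4 measured genes past the threshold in limma. In that fit 1 of them had an unadjusted p under 0.05, and the median change was -0.057. That median was 0.0025 without GSK126 replicate 1, -0.0041 without DMSO replicate 2 and -0.11 without either of the other arrays. Pde12, a phosphodiesterase that degrades 2-5A, was at 6.39 and 6.50 in DMSO and at 6.19 and 6.03 in GSK126, a change of -0.33 that did not pass (unadjusted p = 0.0269, adjusted p = 0.404 in limma). Akap7, another protein with an activity that removes 2-5A, changed by 0.18, and Abce1, a ribosome recycling factor, by 0.039. Cgas is a DNA sensor and not a 2-5A enzyme, although its enzyme fold is related to that of Oas proteins. It changed by -0.15. None of these 3 passed.

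Of 12 other genes of double-stranded RNA sensing, 1 rose past the threshold and 0 fell, with a median change of 0.034 that became -0.020 with each array centred on its median, 0.086 without DMSO replicate 1 and 0.059 without GSK126 replicate 1. At an unadjusted p under 0.05 there were 4 with a higher mean and 1 with a lower mean. Zbp1, a sensor of Z-form nucleic acids, rose 1.72-fold (adjusted p = 0.0340 in limma). The endosomal receptor gene Tlr3 was at a change of 0.24, the cytosolic helicase sensor genes Ifih1 and Ddx58 at 0.27 and 0.28, and none of these 3 passed. Eif2ak2, the kinase that stops translation on double-stranded RNA, was at -0.0028.

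Interferon genes themselves gave 0 of 18 measured type I and III ligands past the threshold in limma, with 1 higher at an unadjusted p under 0.05, and 11 of them were dim in both groups. Ifnb1 was dim on all arrays, at 3.04 and 3.27 in DMSO and 2.76 and 2.97 in GSK126. The smallest p values were those of Ifna14 (0.40), Ifnab (-0.43), Ifna6 (0.36) and Ifna4 (0.27). Of 14 receptors and signal transducers 0 passed in limma, with 3 at an unadjusted p under 0.05 (2 upward, 1 downward) and a median change of -0.041, with -0.11 when GSK126 replicate 2 was left out and -0.0041 when GSK126 replicate 1 was. Stat2 lay next to the threshold (8.38 and 8.55 in DMSO, 9.09 and 9.05 in GSK126, change 0.61, adjusted p = 0.0506 in limma). Over the alternatives with 4 arrays its adjusted p ran from 0.0263 when dim genes were dropped to 0.452 over all probe sets, passing in 3 of 8, and over the fits that left out 1 array from 0.186 to 0.483. Its partner Irf9 was at 0.014, the interferon lambda receptor gene Ifnlr1 at -0.36 and the interferon alpha receptor gene Ifnar2 at -0.16. Among 6 negative regulators, Usp18, which removes Isg15 from proteins and dampens receptor signalling, rose 1.82-fold (adjusted p = 0.0101 in limma), and the other 5, among them Socs1 (0.24), Irf2 (-0.26) and Pias1 (0.14), did not pass.

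Antiviral effectors outside the family gave 4 of 19 measured genes past the threshold, all higher, and at an unadjusted p under 0.05 it gave 10 higher and 0 lower. Their median change of 0.35 compares with 0.43 for the Oas members and -0.0077 for all genes, and the difference between the lists was not tested. The 4 were Ifit1, which binds viral RNA caps (2.79-fold), the radical enzyme gene Rsad2 (2.53-fold), the nucleotide kinase gene Cmpk2 (1.97-fold) and Ifit2 (1.90-fold). Oas2, at 1.92-fold, lay between Cmpk2 and Ifit2. Ifit3 was at a change of -0.027, and Ifitm3 was at 12.6 on all arrays.

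**Figure D5:**
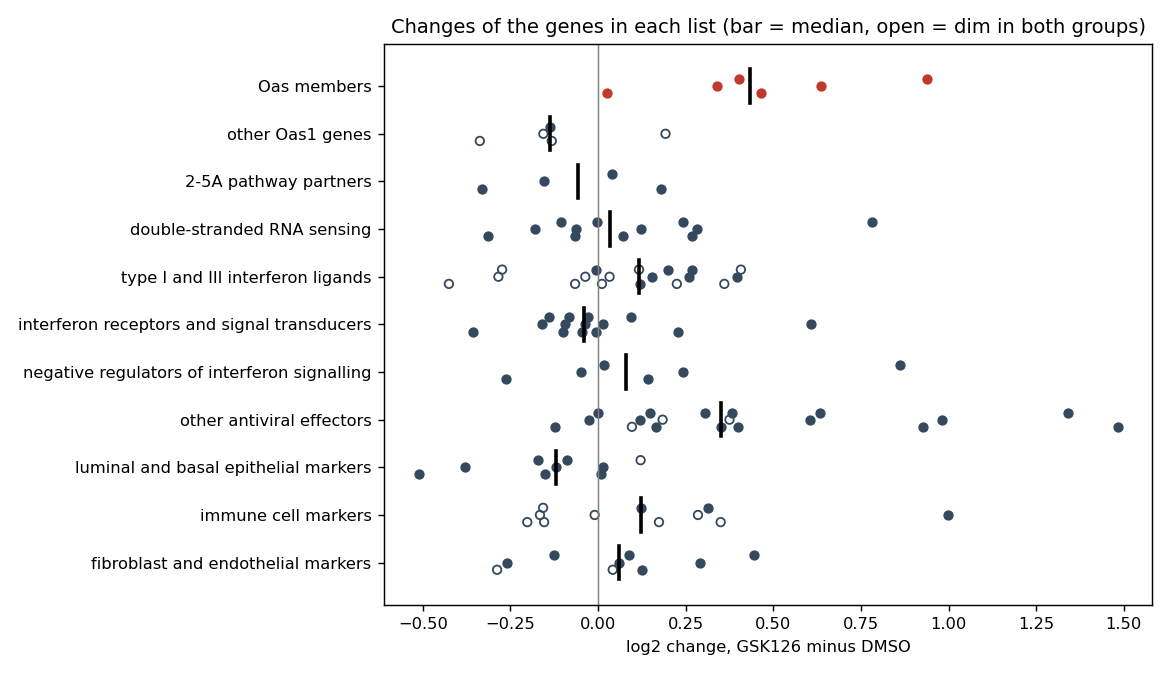
Log2 change (GSK126 minus DMSO, horizontal axis) of each measured gene in the Oas family (red) and in the other lists (blue), with the list median as a black bar and genes dim in both groups as open circles. The medians of the Oas members (0.43) and of the other antiviral effectors (0.35) lie farthest to the right, while that of the interferon receptors and signal transducers is at -0.041.

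Markers of other cell types were followed because leukocytes also express Oas genes. Of 11 immune markers, 8 were dim in both groups and 1 passed the threshold, the macrophage and lysosome gene Cd68, which rose from 8.20 and 8.08 to 9.16 and 9.12 (adjusted p = 0.0100 in limma). The mean log2 level over the 11 markers was 4.47 and 4.52 in DMSO and 4.64 and 4.63 in GSK126. Without Cd68, a choice made after seeing the data, the mean over the other 10 was 4.09 and 4.17 in DMSO and 4.19 and 4.18 in GSK126, with 5 markers higher in mean and 5 lower. The leukocyte gene Ptprc was at 3.67 and 3.37 in DMSO and 3.44 and 3.58 in GSK126, and the macrophage gene Adgre1 at 3.68 and 4.17 and then 3.80 and 3.73. The part of such cells in the Oas changes was not tested. Outside the Oas family, 7 genes of these lists passed with all 4 arrays, and Ifit1 without DMSO replicate 1 was the only such call left when 1 array was removed. Of the remaining immune markers, Ms4a1 (0.35), Siglech (0.31) and Cd3e (-0.20) had the next smallest p and did not pass. Fibroblast and endothelial markers gave 0 of 9 past the threshold in limma, with 1 at an unadjusted p under 0.05, Pdgfra (0.45), and Pecam1 (0.29), Dcn (-0.29) and Cdh5 (-0.26) after it. Their mean level was 4.74 and 4.72 in DMSO and 4.88 and 4.66 in GSK126. Of 9 epithelial markers 0 passed in limma, with 2 lower at an unadjusted p under 0.05, Krt14 (-0.51) and Elf5 (-0.38), and with Erbb2 at -0.15 and Epcam at -0.12. Their mean level was 8.59 and 8.65 in DMSO and 8.48 and 8.47 in GSK126.

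The genes with a pattern most like the family's were sought by the smallest Euclidean distance over the 4 arrays between a gene's mean-centred values and the members' mean profile, among genes that were not dim. That profile was -0.18 and -0.29 in DMSO and 0.27 and 0.20 in GSK126. The 5 nearest were the sugar phosphate transporter gene Slc37a2 (distance 0.033), the adhesion molecule gene Mcam (0.034), the glycolytic regulator gene Pfkfb3 (0.039), the oncostatin M receptor gene Osmr (0.042) and the protease inhibitor gene Slpi (0.042). Their changes lay between 0.43 and 0.50 and none passed the threshold. With 4 arrays of 2 groups, this likeness describes little more than the group difference and its replicate gaps.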

How the data were processed

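Gene expression was measured on 1-colour Affymetrix mouse arrays with biotin-labelled total RNA, 2 for DMSO and 2 for GSK126, grouped by the sample titles. Per the labels, the authors ran RMA (robust multi-array average) on core exons with the Expression Console software and deposited log2 values. Affymetrix Power Tools, with no version, appears in the submitters' processing notes. The centring and the genome build are not given in the sources used here. The number of arrays limits the precision.

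Of 41345 probe sets, 23521 carried 1 symbol in the platform annotation, 1814 several and 16010 none, and only those with 1 were used for names. Entrez identifiers matched 23328 probe sets to RefSeq (GRCm38.p6) and updated 0 symbols. Rigi was looked up as Ddx58. Where a gene had several probe sets, the one with the highest mean stood for it. Limma 3.58.1 in R 4.3.3 fitted GSK126 minus DMSO with an intensity trend and a two-sided moderated test, with 2 residual and 5.57 prior degrees of freedom. An exact permutation test of 2 against 2 arrays cannot go below p = 0.333. The procedure was tested on simulated data. Promoter windows were aligned with Biopython 1.88, and proteins were not compared. Transcripts with shared probe sequence are not separated on arrays, so Oas1 genes are uncertain as single genes.

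The members, lists and tests were chosen with earlier results of these data known. Named were all members, the other Oas1 genes, the 2-5A partners, up to 4 genes with the smallest p of each other list, and the 5 genes most like the family; further genes were named after their values were seen. Alternatives were no trend, a robust prior, leaving out dim genes, averaged probe sets, all probe sets, centred arrays, quantile normalization, a replicate block and leaving out each array.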

Additional observations from a re-analysis of the deposited data

How the results depend on the processing

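The directions of the family median and of Oas2, Oas3, Oas1b, Oasl1 and Oasl2 held under all 12 alternatives, but most of these could not turn them. Leaving out 1 array cannot turn genes whose groups do not overlap. The changes of the members were the same as in the main fit without the trend, with the robust prior and without dim genes. They were also the same with averaged probe sets, all probe sets and the replicate block. Only centred arrays and quantile normalization could have turned these directions, and they gave family medians of 0.38 and 0.47. Leaving out 1 array gave a family median of 0.37 to 0.54. Oas1g turned to -0.029 with centred arrays, which lowered all changes alike, and leaving out 1 array gave -0.058 to 0.11. Most directions in the count that follows were thus fixed in advance. Over the 72 values of members under alternatives, 55 kept direction and side of the threshold, 14 lost the call, all of them Oas2 or Oasl2, and 3 turned, all of them Oas1g. In limma, 0 members passed without the trend, over all probe sets and with the replicate block, each with 5 at an unadjusted p under 0.05, and 0 passed without any 1 array. Over all genes, the count past the threshold was 0 without the trend, 0 over all probe sets, 149 without dim genes, 10 with the replicate block and 0 to 4 without 1 array; at an unadjusted p under 0.05 these fits held 1964, 2921, 1926, 2124 and 1771 to 2100 genes. Same-numbered arrays deviated with a correlation of -0.027. With so few arrays per group, that value cannot settle whether same-numbered arrays shared a line or culture, and this was not tested. Under the replicate block Oas2 had an adjusted p of 0.0912 and Oasl2 of 0.141 in limma. Adjusted p over the other alternatives with 4 arrays ran from 0.0159 to 0.440 for Oas2 and from 0.0161 to 0.413 for Oasl2, and without 1 array from 0.186 to 0.375 and from 0.155 to 0.473. The cause of these differences was not tested.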
